A study of Mus musculus with 24 samples.

Results

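The genes described here encode the transporters that carry glucose and amino acids into T cells: Slc2a1 and Slc2a3 for glucose, Slc7a5 and Slc3a2 for large neutral amino acids, Slc1a5 and Slc38a2 for glutamine and other neutral amino acids, and Slc7a11 for cystine. They were taken by name, all 7 were on the array with 9 probes, and the arrays named 20028 genes in all with 55681 probes. Each of 24 two-colour Agilent arrays compared mouse T helper cells, labelled with Cy3, with naive CD4+ T cells, labelled with Cy5. The study asked how inhibitors of transcriptional elongation alter gene expression in T helper cells.

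The cells came from female C57BL/6 mice, and naive CD4+ T cells were differentiated in vitro into Th1 cells (14 arrays) or Th2 cells (10 arrays). The vehicle was DMSO (6 arrays). JQ1, which blocks the bromodomains of BET proteins, was given at 50 or 500 nM (10 arrays), and flavopiridol, which blocks P-TEFb, a kinase of transcriptional elongation, at 1 or 10 µM (8 arrays). Each treatment was given to unstimulated and to reactivated cells for 6 hr, with further arrays at 24 hr for Th1 cells under DMSO and under 500 nM JQ1. For the DMSO arrays of Th2 cells the labels name both 24 hr and 6 hr, so the time is unclear, and no label names the agent of reactivation. These Th2 DMSO arrays served as controls of the 6 hr Th2 drug arrays and were paired with 6 hr Th1 DMSO arrays. The part of time in the differences that involve them was not tested. The naive reference was CD4+CD62L+CD25-CD44lo cells of lymph nodes and spleens. Every condition was measured on 1 array. Tests therefore rest on changes that recurred across cell types, times and activation states, or across treatments and states for Th1 against Th2 cells. Their p-values measure the spread between those contexts, and each drug fit shared 1 estimate of the spread over both doses.

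Glucose transporters of the SLC2 family let sugar pass down its gradient, and GLUT1 (Slc2a1) and GLUT3 (Slc2a3) are the forms best known in lymphocytes, which raise glucose uptake when they are activated. System L is a pair of chains, the light chain LAT1 (Slc7a5) that carries leucine and related amino acids and the heavy chain CD98 (Slc3a2) that brings it to the membrane, and it exchanges these for glutamine taken up by carriers such as ASCT2 (Slc1a5) and SNAT2 (Slc38a2). CD98 is also the heavy chain of the cystine-glutamate exchanger xCT (Slc7a11), which supplies cysteine for glutathione.

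RefSeq promoter sequence (build GRCm38.p6) was at hand for 4 of the 7 genes. The 3 shown are those of the genes whose mRNA was lower with flavopiridol, described below. Each is the 250 bases before the start site, written 5′ to 3′ on the strand of the gene, and capitals mark a match on either strand to the GC box (GGGCGG) or, in Slc38a2, also to the antioxidant response element core (TGACNNNGC).
Slc2a1 (chr4:119108495-119108744, plus strand): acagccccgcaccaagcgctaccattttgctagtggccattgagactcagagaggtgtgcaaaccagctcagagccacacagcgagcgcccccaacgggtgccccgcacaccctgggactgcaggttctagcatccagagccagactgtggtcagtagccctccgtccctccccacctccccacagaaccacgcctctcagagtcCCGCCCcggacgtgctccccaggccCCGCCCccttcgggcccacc
Slc38a2 (chr15:96699729-96699978, minus strand): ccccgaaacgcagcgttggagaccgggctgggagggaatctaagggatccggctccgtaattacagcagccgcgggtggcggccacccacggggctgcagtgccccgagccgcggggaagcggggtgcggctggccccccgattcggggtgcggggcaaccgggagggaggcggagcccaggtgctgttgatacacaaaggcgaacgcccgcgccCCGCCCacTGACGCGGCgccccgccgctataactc
Slc3a2 (chr19:8713898-8714147, minus strand): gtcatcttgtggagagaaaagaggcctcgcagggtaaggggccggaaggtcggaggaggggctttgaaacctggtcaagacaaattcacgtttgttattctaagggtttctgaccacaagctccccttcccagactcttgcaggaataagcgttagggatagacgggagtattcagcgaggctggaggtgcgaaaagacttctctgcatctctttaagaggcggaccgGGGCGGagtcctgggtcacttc
All 3 held a GC box within the last 50 bases before the start. It lay at 45 and 20 bases in Slc2a1, at 35 bases in Slc38a2 and at 22 bases in Slc3a2. Anywhere in the 250 bases, 32.7% of 32851 promoters held one, and that of Slc7a11 held none. No promoter was at hand for Slc2a3, Slc7a5 and Slc1a5, so a link of this motif to flavopiridol was not tested. The antioxidant core of Slc38a2 lay at 27 bases, and 10.2% of all promoters held that motif. The promoter of Slc7a11 held 2 copies of the amino acid response element core TGATGCAA, at 66 and 47 bases, a motif found in 0.791% of all promoters. No match was found in the 4 windows for CACGTG (6.02% of all promoters), TGACTCA (4.46%), TGATGAAA (0.883%) or TACGTG (2.72%). None of the matches overlapped another.

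The T cell markers Cd3e, Cd3g, Cd3d, Cd4, Thy1 and Lck were well above background in the sample channel on all 24 arrays. All 5 Th1 markers had a higher mean in Th1 cells, and 5 of 6 Th2 markers had a higher mean in Th2 cells. On the 8 flavopiridol arrays 36.3% to 42.2% of probes were well above background in Cy3, and on the other 16 arrays 44.6% to 52.6%. The 24 arrays lay on 3 slides of 8. Both arrays of every reactivation pair shared a slide, as did Th1 cells with JQ1 and their DMSO arrays, whereas flavopiridol arrays and Th2 JQ1 arrays lay on other slides than their DMSO arrays.

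Of the 9 probes, 8 were well above background in both channels on every array, and none was saturated. The exception was the probe of Slc7a11, which was not well above background in either channel on any array. Its log2 ratio lay between -0.12 and 0.27, with a log2 Cy3 signal of 5.79 to 6.14, so Slc7a11 could not be tested and no fold is given. The other 6 genes were tested in every comparison. Slc7a5 and Slc1a5 had 2 probes each, and the brighter one stands for the gene (A_55_P1973941 and A_51_P453475). The values below are log2 ratios of sample over naive cells, so that 1 unit is a doubling, and a difference is between such ratios. In cell pools such as these, fewer cells of a type and less RNA per cell cannot be told apart.

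**Figure D1:**
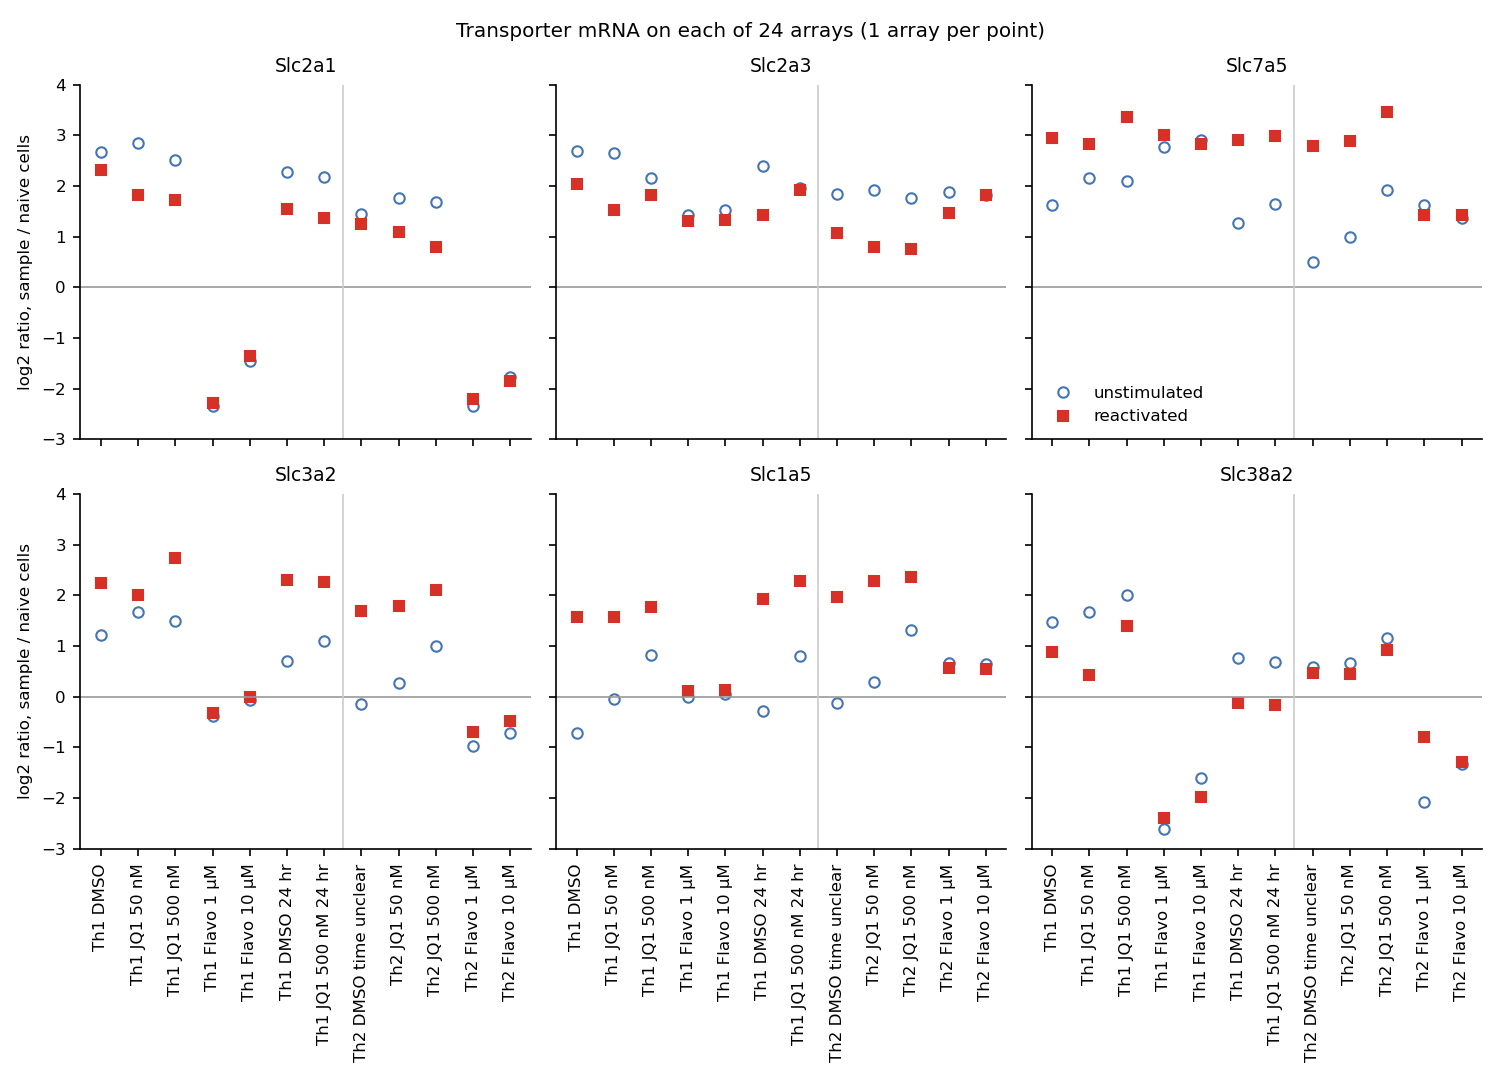
Log2 ratio over naive cells (vertical axis) of the 6 measured transporter genes on each of the 24 arrays, 1 array per point, with open blue circles for unstimulated and filled red squares for reactivated cells, and Th1 cells left and Th2 cells right of the vertical grey line. Slc2a1 and Slc38a2 lie below 0 on all 8 flavopiridol arrays, and Slc2a3 lies above 0 on all 24.

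Before reactivation, T helper cells already held more mRNA of both glucose transporters than naive cells. Slc2a1 read 2.68 in 6 hr Th1 cells, 2.27 in 24 hr Th1 cells and 1.44 in Th2 cells. Slc2a3 read 2.69, 2.40 and 1.83 on the same arrays. Every one of these ratios was above 0, with means of 2.13 (SE 0.24, 4.38-fold, limma adjusted p = 0.00197) and 2.31 (SE 0.18, 4.95-fold, adjusted p = 0.000659). Slc7a5, at 1.13 (SE 0.23, adjusted p = 0.0107), and Slc38a2, at 0.94 (SE 0.19, adjusted p = 0.0117), were also higher than in naive cells. Slc3a2 read 0.59 (adjusted p = 0.114) and Slc1a5 read -0.37 (adjusted p = 0.0879), and neither passed the threshold. Thus 4 of 6 genes were called higher, against a background of 30% of 12276 genes called higher. The reading of Slc7a5 rested on its brighter probe, since the other gave -0.41, and the call was lost (adjusted p = 0.0685) with 1 of the 3 arrays left out. That of Slc38a2 was lost with median centring (0.41, adjusted p = 0.108). Without the Th2 array Slc3a2 was called higher (0.96, adjusted p = 0.000840) and Slc1a5 lower (-0.49, adjusted p = 0.0258).

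In reactivated cells 5 of 6 were called higher than in naive cells, against a background of 38.9% of 12534 genes. Slc7a5 was at 2.88 (7.34-fold, SE 0.08, adjusted p = 2.68e-05) by its brighter probe and at 0.99 by the second (adjusted p = 0.000504), Slc3a2 at 2.08 (4.24-fold), Slc1a5 at 1.82 (3.53-fold), Slc2a1 at 1.69 (3.24-fold) and Slc2a3 at 1.51 (2.85-fold). Slc38a2 read 0.41 (SE 0.20, adjusted p = 0.123). In both comparisons the naive cells are the reference dye on each array, so their own spread is not part of the error, and the dyes were not swapped.

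Reactivation without drug raised the system L chains and Slc1a5 and lowered the glucose transporters and Slc38a2. Slc1a5, the glutamine carrier, went from -0.72 to 1.56 in 6 hr Th1 cells, from -0.27 to 1.92 in 24 hr Th1 cells and from -0.13 to 1.97 in Th2 cells. The light chain Slc7a5 went from 1.62 to 2.94, from 1.26 to 2.92 and from 0.51 to 2.78 in the same order. The heavy chain Slc3a2 went from 1.21 to 2.25, from 0.71 to 2.31 and from -0.15 to 1.69. For these 3 genes every reactivated array lay above every unstimulated array. The mean changes were 2.19 for Slc1a5 (4.56-fold, SE 0.12, limma adjusted p = 0.000182), 1.74 for Slc7a5 (3.35-fold, SE 0.20, adjusted p = 0.000881) and 1.49 for Slc3a2 (2.82-fold, SE 0.18, adjusted p = 0.00106). The second probe of Slc7a5 rose by 1.40 and that of Slc1a5 by 2.25.

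Slc2a3 fell from 2.69 to 2.03 in 6 hr Th1 cells, from 2.40 to 1.43 in 24 hr Th1 cells and from 1.83 to 1.06 in Th2 cells, a mean change of -0.80 (1.74-fold lower, SE 0.13, adjusted p = 0.00321). Slc2a1 went from 2.68 to 2.31, from 2.27 to 1.54 and from 1.44 to 1.24, a mean of -0.43 (1.35-fold lower, SE 0.15, adjusted p = 0.0473). Slc38a2 went from 1.47 to 0.89, from 0.77 to -0.12 and from 0.59 to 0.46, a mean of -0.53 (1.45-fold lower, SE 0.17, adjusted p = 0.0400). All 3 were lower in 3 of 3 pairs, although reactivated and unstimulated arrays overlapped for each. Of the 6 genes, 3 were called higher and 3 lower, where 21.9% of 12530 genes were called higher and 29% lower. The calls of Slc2a1 and Slc38a2 were lost when any of the 4 Th1 DMSO arrays was left out, and without the 24 hr Th1 pair their changes were -0.29 (adjusted p = 0.269) and -0.36 (adjusted p = 0.215). Both were also lost when arrays were centred on spike-in RNA (adjusted p = 0.519 and 0.293), and without the pair block so was that of Slc2a3 (adjusted p = 0.0738).

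With 10 µM flavopiridol 3 transporters were far below DMSO under every scaling tried. The other 3 did not pass the test after loess but were all called lower with centring on spike-in RNA, as were 11275 of 12432 genes. Slc2a1 read 2.68, 1.44, 2.31 and 1.24 with DMSO in unstimulated Th1, unstimulated Th2, reactivated Th1 and reactivated Th2 cells. With 10 µM flavopiridol the values were -1.46, -1.77, -1.35 and -1.85, and with 1 µM they were -2.33, -2.33, -2.27 and -2.21. The groups did not overlap, and the mRNA stood above the naive level on every DMSO array of the 4 contexts and below it on every flavopiridol array. The change was -3.52 at 10 µM (11.5-fold lower, SE 0.24, limma adjusted p = 2.18e-05) and -4.20 at 1 µM (18.4-fold lower, SE 0.24, adjusted p = 6.97e-06). In the sample channel alone the log2 signal of Slc2a1 ranged over all 24 arrays from 8.37 to 13.5 while its naive signal stayed between 10.7 and 10.9.

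Slc38a2, at 1.47, 0.59, 0.89 and 0.46 with DMSO in the same 4 contexts, read -1.60, -1.32, -1.98 and -1.29 with 10 µM flavopiridol. With 1 µM it read -2.61, -2.08, -2.40 and -0.80, the last of these in reactivated Th2 cells. Its changes were -2.40 (5.27-fold lower, SE 0.38, adjusted p = 0.000958) and -2.83 (7.09-fold lower, SE 0.38, adjusted p = 0.000337), with no overlap between drug and DMSO. Slc3a2 read 1.21, -0.15, 2.25 and 1.69 with DMSO, -0.06, -0.71, -0.01 and -0.48 with 10 µM and -0.39, -0.96, -0.31 and -0.70 with 1 µM flavopiridol. Its level in unstimulated Th2 cells with DMSO overlapped the flavopiridol values, and the changes were -1.57 (2.96-fold lower, SE 0.29, adjusted p = 0.00234) and -1.84 (3.58-fold lower, SE 0.29, adjusted p = 0.000863).

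Each of these 3 genes was lower in 4 of 4 contexts at both doses. The count of 3 of 6 called lower and 0 higher stands beside 33.5% of 12432 genes called lower and 15.4% higher at 10 µM, and 35.4% lower at 1 µM. The remaining genes changed by -0.28 (Slc2a3, adjusted p = 0.446), 0.17 (Slc7a5, adjusted p = 0.760) and -0.33 (Slc1a5, adjusted p = 0.562) at 10 µM. Their 95% intervals ran from -0.94 to 0.37, from -0.77 to 1.1 and from -1.33 to 0.67. Without the reactivated Th2 DMSO array Slc7a5 was called higher (0.69, adjusted p = 0.0473). Thus Slc2a1 and Slc2a3, which carry the same sugar, read -1.61 and 1.62 on average over the 4 contexts with 10 µM flavopiridol, against 1.92 and 1.90 with DMSO. The reference signal of Slc2a3 followed its sample signal, as described below. In Cy3 alone its change was -0.57 (adjusted p = 0.253). Between the doses no transporter was called by limma, 1 had an unadjusted p below 0.05, and 1.88% of all genes were called in either direction. That gene was Slc2a1, which read 0.68 higher at 10 than at 1 µM (SE 0.24, adjusted p = 0.270, higher in 4 of 4 contexts).

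Flavopiridol moved the bulk of the genes, and how far depended on the scaling. The median of all genes was -0.22 after loess and between -1.64 and -0.18 over 7 scalings, the lowest with centring on spike-in RNA. Relative to that median, Slc2a1 lay between -3.76 and -3.30, Slc38a2 between -2.69 and -2.17 and Slc3a2 between -1.49 and -0.95. Slc7a5 lay between 0.07 and 1.13, while Slc1a5 (-0.22 to 0.31) and Slc2a3 (-0.52 to 0.37) lay on both sides of the median. The calls of the other 3 turned on the scaling. With centring on spike-in RNA Slc2a3 was at -2.16 (adjusted p = 3.69e-06), Slc1a5 at -1.86 (adjusted p = 0.00545) and Slc7a5 at -1.56 (adjusted p = 0.00903), and with median centring Slc2a3 was at -1.57 (adjusted p = 0.000172) and Slc1a5 at -1.28 (adjusted p = 0.0287). Of 12432 genes, 11275 were called lower with spike-in and 8290 with median centring. No flavopiridol array shared a slide with its DMSO array. With slide as a random block the adjusted p was 0.000181 for Slc2a1, 0.00582 for Slc38a2 and 0.0169 for Slc3a2. In 1 fit of all 24 arrays with slide as a term the changes were -4.11 (adjusted p = 1.355e-05), -3.54 (adjusted p = 0.000283) and -2.24 (adjusted p = 0.0149) in the same order. The summed log2 level of 3 NK cell markers was 8.50 to 9.23 on flavopiridol and 8.21 to 8.43 on DMSO arrays, with Klrb1c not well above background on any array. That of 3 red cell markers was 8.10 to 8.55 against 7.70 to 7.92, with Alas2 likewise below background, and 2 CD8 T cell markers gave 8.10 to 9.34 against 7.45 to 8.86. Other lists were lower, with 8.51 to 10.05 against 9.51 to 11.3 for 4 B cell markers and 12.2 to 13.8 against 13.5 to 14.2 for 5 myeloid markers. The part of these cells and of the lower share of probes above background in the result was not tested.

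**Figure D2:**
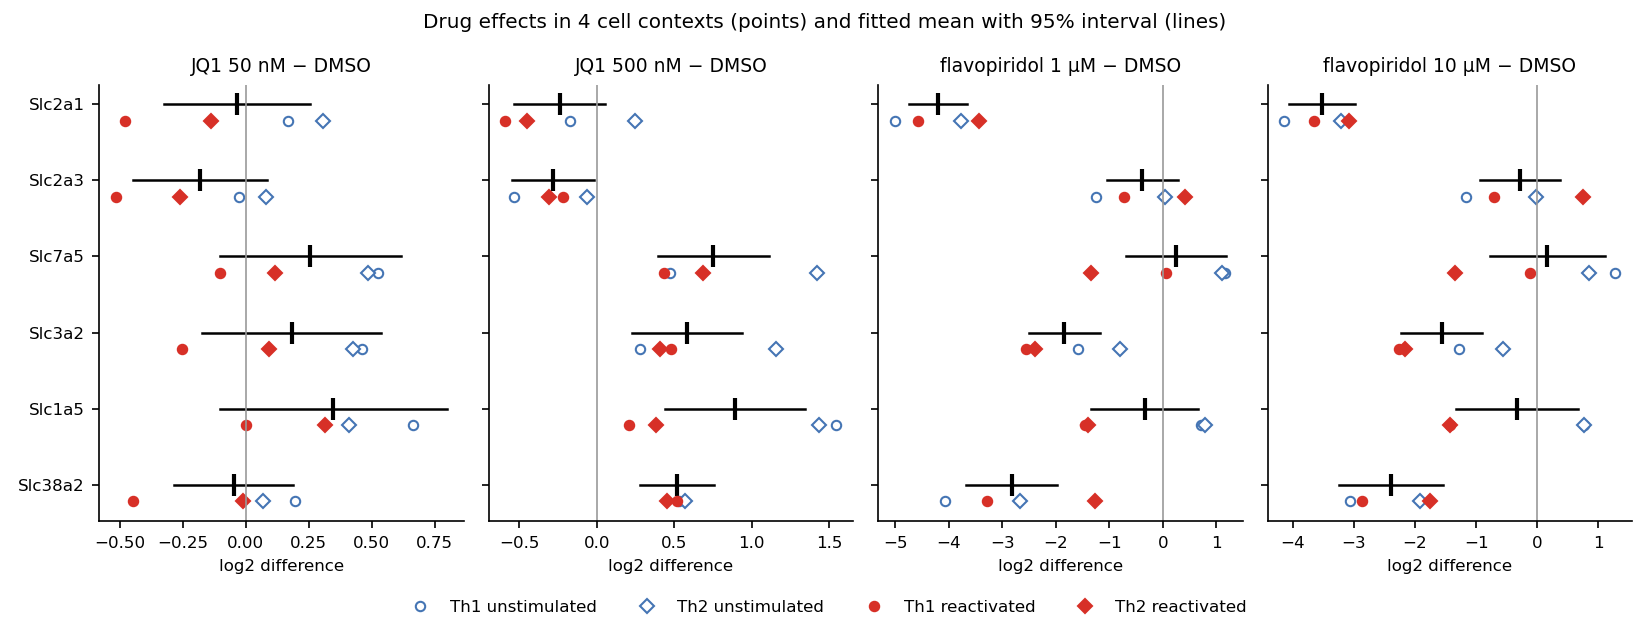
Log2 difference from DMSO (horizontal axis) of 6 transporter genes with 50 and 500 nM JQ1 and 1 and 10 µM flavopiridol, each panel on its own scale, with points for the 4 cell contexts and lines for the fitted mean and its 95% interval. Slc2a1 lies between -4.14 and -3.09 with 10 µM flavopiridol, and Slc38a2 between 0.45 and 0.57 with 500 nM JQ1.

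The difference between unstimulated and reactivated cells was small in the presence of flavopiridol. Slc1a5, which rose by 2.10 to 2.28 in the 3 DMSO pairs, changed by 0.11 and 0.09 in Th1 cells and by -0.09 and -0.10 in Th2 cells with 1 and 10 µM. Slc7a5, which rose by 1.31 to 2.27 with DMSO, changed by between -0.18 and 0.23 in the 4 flavopiridol pairs. Slc3a2, which rose by 1.04 to 1.84, changed by between 0.05 and 0.26. For these 3 genes the flavopiridol pairs did not overlap the DMSO pairs. The test of the difference between the effect of 10 µM flavopiridol in reactivated and in unstimulated cells gave -2.19 for Slc1a5 (SE 0.19, limma adjusted p = 0.00202), -1.80 for Slc7a5 (SE 0.46, adjusted p = 0.0409) and -1.30 for Slc3a2 (SE 0.30, adjusted p = 0.0293). The other 3 were not called, and lower calls were made for 3 of 6 genes against 6.93% of all genes.

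For Slc1a5 the drug value lay after loess 0.76 and 0.77 above DMSO in unstimulated Th1 and Th2 cells and 1.43 below it in both reactivated cells. The direction in unstimulated cells turned with the scaling, to -0.06 and -0.55 with median centring and to -0.39 and -1.10 with centring on spike-in RNA, while reactivated cells stayed below DMSO, at -1.86 and -2.63 and at -2.37 and -3.58. Slc7a5 lay 1.28 and 0.85 above DMSO in unstimulated cells (0.05 and -0.42 with median and -0.28 and -0.97 with spike-in centring), and 0.11 and 1.35 below it in reactivated Th1 and Th2 cells. In reactivated cells Slc7a5 differed from DMSO by -1.10 and -2.46 with median and by -1.608 and -3.405 with spike-in centring. By the log ratio of the scanner software it differed by 0.46 and -0.77. Its second probe gave other values, with differences from DMSO of -0.04 and 0.60 in unstimulated and -0.89 and -0.37 in reactivated Th1 and Th2 cells. Slc3a2 was lower throughout, by 1.28 and 0.56 in unstimulated and by 2.26 and 2.17 in reactivated cells. The second probe of Slc1a5 gave 1.29 and 1.49 in unstimulated and -0.78 and -0.96 in reactivated Th1 and Th2 cells after loess. On all 8 flavopiridol arrays Slc1a5 stayed between -0.01 and 0.66 by its brighter probe (0.67 to 1.42 by the second), inside the range spanned by unstimulated and reactivated DMSO cells. The calls of Slc7a5 and Slc3a2 were lost (adjusted p of up to 0.185 and 0.155) when any of the 4 flavopiridol arrays or the unstimulated Th2 DMSO array was left out, and that of Slc7a5 also without the unstimulated Th1 DMSO array. The call of Slc1a5 was kept with each of the 8 arrays left out (adjusted p of up to 0.0287) and with median centring (adjusted p = 0.0388), and was lost under loess with a shift by spike-in RNA (-2.38, adjusted p = 0.0721). Those of Slc7a5 and Slc3a2 were lost under both, with adjusted p of 0.131 and 0.128 after median centring.

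Slc38a2 went the other way in 1 pair. In Th2 cells with 1 µM flavopiridol it read -2.08 unstimulated and -0.80 reactivated, a rise of 1.29. The other 3 flavopiridol pairs changed by between -0.38 and 0.21, and the same cells at 10 µM by 0.04. Being 1 pair of arrays, that rise has no replicate check.

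**Figure D3:**
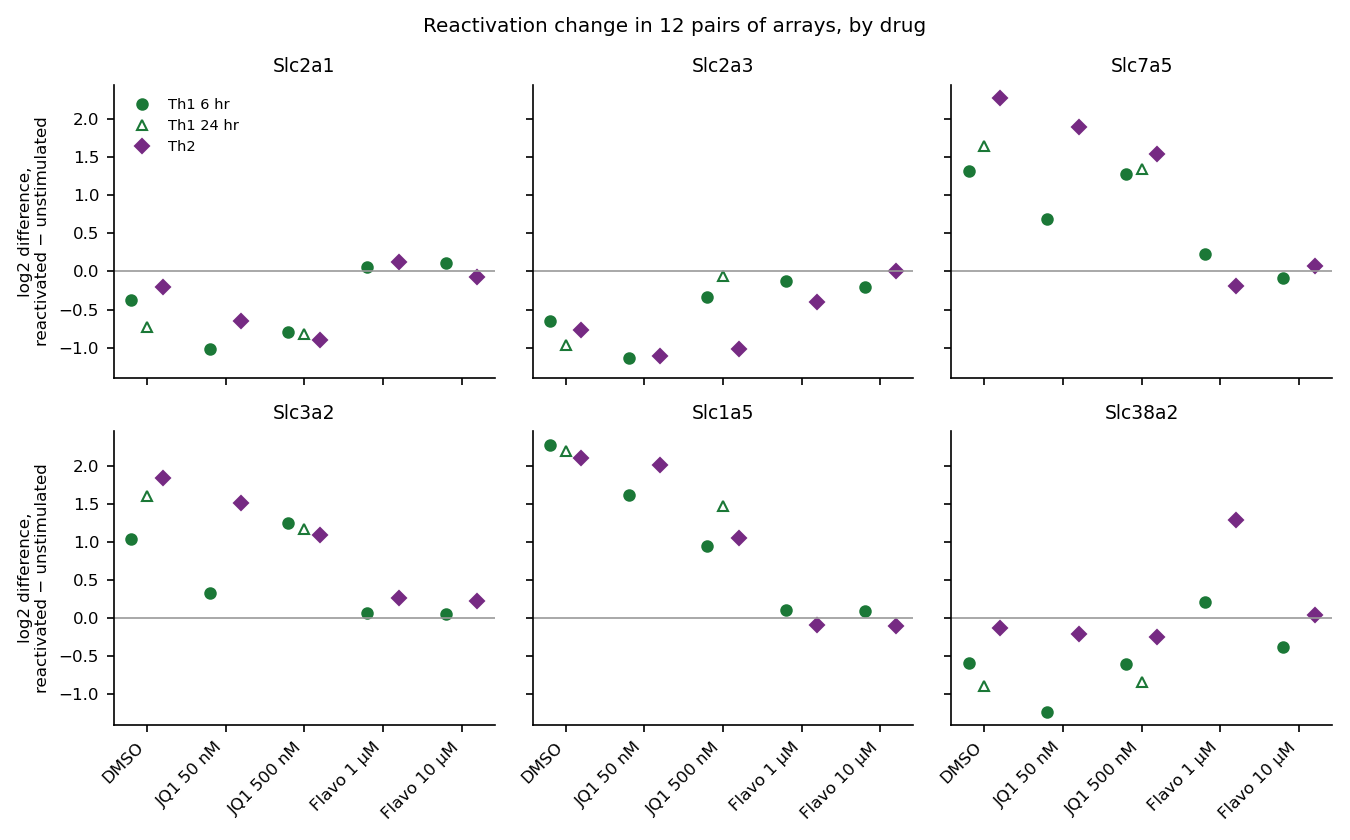
Change of the log2 ratio on reactivation (vertical axis) for 6 transporter genes in 12 pairs of arrays, grouped along the horizontal axis by treatment. Slc1a5 changes by 2.10 to 2.28 with DMSO, by 0.94 to 1.48 with 500 nM JQ1 and by -0.10 to 0.11 with flavopiridol.

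After loess JQ1 at 500 nM raised the 4 measured amino acid transporters and the glucose transporters did not pass the test, whereas with centring on spike-in RNA none of the 4 was called, Slc38a2 read -0.09 and both glucose transporters were called lower. Slc1a5 read -0.72, -0.13, 1.56 and 1.97 with DMSO in unstimulated Th1, unstimulated Th2, reactivated Th1 and reactivated Th2 cells, and 0.83, 1.31, 1.77 and 2.36 with JQ1. It was higher in 4 of 4 contexts, by 0.89 on average (1.86-fold, SE 0.20, limma adjusted p = 0.00452). Slc7a5 read 2.10, 1.93, 3.37 and 3.46 with JQ1 against 1.62, 0.51, 2.94 and 2.78, a rise of 0.75 (1.69-fold, SE 0.16, adjusted p = 0.00332) that was 0.46 by its second probe (adjusted p = 0.00291). The 2 reactivated JQ1 values of Slc7a5 were the highest of this gene on any array. Slc3a2 read 1.49, 1.00, 2.73 and 2.10 against 1.21, -0.15, 2.25 and 1.69, a rise of 0.58 (SE 0.16, adjusted p = 0.0124). Slc38a2 read 2.00, 1.17, 1.40 and 0.92 against 1.47, 0.59, 0.89 and 0.46, a rise of 0.52 (1.43-fold, SE 0.11, adjusted p = 0.00252). Its 4 differences, between 0.45 and 0.57, were the most alike of the 6 genes, although its drug and DMSO values overlapped between contexts as those of the other genes did. In Th1 cells with DMSO Slc38a2 read 1.47 unstimulated and 0.89 reactivated at 6 hr, and 0.77 and -0.12 at 24 hr. The time of the Th2 DMSO arrays is unclear, and its part in the 2 Th2 differences was not tested.

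Thus 4 of 6 genes were called higher, against 17.7% of 12910 genes, and 0 lower, against 29.9%. Slc2a1 changed by -0.24 (95% interval -0.53 to 0.05, adjusted p = 0.159) and Slc2a3 by -0.28 (-0.55 to -0.01, adjusted p = 0.0775, lower in 4 of 4 contexts). Both were called lower with median centring, at -0.56 (adjusted p = 0.00937) and -0.62 (adjusted p = 0.00127), and with centring on spike-in RNA, at -0.83 (adjusted p = 0.00923) and -0.88 (adjusted p = 0.00558). Of 12910 genes, 5818 were called lower with median and 5417 with spike-in centring. The all-gene median was -0.07 after loess and -0.61 to -0.04 over 7 scalings, and with centring on spike-in RNA the other rises shrank to 0.30 (Slc1a5), 0.15 (Slc7a5) and 0.00 (Slc3a2), with adjusted p of 0.356 to 0.996 for the 4 genes. In that scaling all 4 stayed above DMSO in unstimulated cells (0.38 to 1.60) and lay below it in reactivated cells (-1.23 to -0.17). The array of reactivated Th1 cells with 500 nM JQ1 had the highest median spike-in log2 ratio of the 24 after loess, at 0.94, against -0.77 to 0.63 on the others. Median centring kept the call of Slc1a5 (0.56, adjusted p = 0.0484) and lost those of Slc7a5 (0.42, adjusted p = 0.0655), Slc3a2 (0.27, adjusted p = 0.198) and Slc38a2 (0.17, adjusted p = 0.262). With it all 4 lay below DMSO in reactivated Th1 cells (-0.42 to -0.12) and above it in the other contexts (0.09 to 1.31). Relative to the median, Slc1a5 lay between 0.84 and 1.00, Slc7a5 between 0.70 and 1.01, Slc3a2 between 0.55 and 0.70 and Slc38a2 between 0.45 and 0.59 under every one of the 7. The 4 calls were also lost without the context block (adjusted p of 0.444 to 0.645) and in 1 fit of all 24 arrays with slide as a term (0.144 to 0.537), and all were kept with slide as a random block.

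At 50 nM JQ1 no transporter was called by limma, none had an unadjusted p below 0.05, and 0.341% of all genes were called. The changes there ran from -0.18 (Slc2a3) to 0.35 (Slc1a5). Between the doses Slc38a2 was 0.57 higher at 500 nM (SE 0.11, adjusted p = 0.00288) and Slc7a5 was 0.50 higher (SE 0.16, adjusted p = 0.0397), 2 of 6 genes against 10.7% of all genes. Slc1a5 differed by 0.55 (adjusted p = 0.0648), higher in 4 of 4 contexts.

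Th1 cells treated for 24 hr shared a slide with their DMSO arrays. Slc1a5 was higher with JQ1 there too, at 0.80 against -0.27 in unstimulated and 2.28 against 1.92 in reactivated cells. Slc7a5 differed by 0.38 and 0.07 and Slc3a2 by 0.39 and -0.04. Slc38a2 differed by -0.09 and -0.04, whereas at 6 hr within 1 slide its mean difference in Th1 cells had been 0.52. Slc2a3, lower in all 4 contexts before, differed by -0.44 in unstimulated and by 0.48 in reactivated cells at 24 hr. With the 24 hr pairs added as further contexts all 4 genes remained called, with 0.83 for Slc1a5 (adjusted p = 0.00105) and 0.32 for Slc38a2 (adjusted p = 0.0291). Whether the time itself changed the effect of JQ1 was not tested.

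The effect of JQ1 on Slc1a5 was larger in unstimulated than in reactivated cells, at 1.55 and 1.44 in unstimulated Th1 and Th2 cells and 0.21 and 0.39 in reactivated ones. The difference was -1.19 (SE 0.16, limma adjusted p = 0.00308), and this was the only lower call among the 6 genes, where 5.62% of all genes were called lower. It held without each of the 8 arrays in turn (-1.32 to -1.07, adjusted p of up to 0.0213). Under loess with a shift by spike-in RNA it was -2.38 and all 6 genes were called lower, at -1.75 to -1.15 for the other 5, as were 10596 of 12910 genes. Median centring also called Slc2a1 (-0.84, adjusted p = 0.0288). In reactivated cells the JQ1 difference of Slc1a5 itself turned to -1.23 in Th1 and -0.45 in Th2 cells with centring on spike-in RNA. Slc2a1 gave -0.56 (adjusted p = 0.0789), with differences from DMSO of -0.17 and 0.25 in unstimulated Th1 and Th2 cells and -0.59 and -0.45 in reactivated ones. The flavopiridol and JQ1 comparisons share the DMSO arrays. On those terms the effects on Slc1a5 in unstimulated Th1 and Th2 cells after loess were 0.76 and 0.77 with 10 µM flavopiridol and 1.55 and 1.44 with 500 nM JQ1. With median centring they were -0.06 and -0.55 with flavopiridol and 1.31 and 1.25 with JQ1. With centring on spike-in RNA they were -0.39 and -1.10 with flavopiridol and 1.60 and 1.25 with JQ1.

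Th1 and Th2 cells differed in 4 of the 6 genes over 10 matched pairs. Slc3a2 was higher in Th1 cells in 10 of 10 pairs, with differences of 0.21 to 1.40 and a mean of 0.67 (1.59-fold, SE 0.12, limma adjusted p = 0.000892). Slc1a5 was higher in Th2 cells in 10 of 10 pairs, with Th1 minus Th2 between -0.73 and -0.33 and a mean of -0.53 (1.44-fold, SE 0.06, adjusted p = 2.59e-05). Its call was lost with median centring (-0.32, adjusted p = 0.110) and under loess with a shift by spike-in RNA (-0.32, adjusted p = 0.275). Slc2a3 was called under both (0.50, adjusted p = 0.00341, and 0.54, adjusted p = 0.0250). Slc2a1 was higher in Th1 cells in 8 of 10 pairs, by 0.66 (1.58-fold, SE 0.13, adjusted p = 0.00236), and the pairs without a higher Th1 value were those of 1 µM flavopiridol. Slc7a5 was higher in Th1 cells in 8 of 10 pairs, by 0.81 (SE 0.19, adjusted p = 0.00625). The cells of a pair shared a slide only with DMSO (2 pairs), and in the other 8 pairs Th1 and Th2 arrays lay on different slides. With slide as a fixed term, chosen after seeing the data, Slc7a5 was not called (0.64, adjusted p = 0.174), Slc2a1 was at 1.15 (adjusted p = 0.000740) and Slc2a3 was called at 0.91 (adjusted p = 0.00311), while Slc3a2 (0.96, adjusted p = 0.0275) and Slc1a5 (-0.50, adjusted p = 0.0203) kept their calls.

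The calls were 3 of 6 higher and 1 of 6 lower in Th1 cells, against 17% of 13113 genes higher and 18.5% lower. Slc7a5 was not called without the flavopiridol arrays (0.41, adjusted p = 0.142) or with its second probe (0.21, adjusted p = 0.178). Without those arrays Slc2a1 differed by 0.98 (adjusted p = 0.000128), and Slc2a3 and Slc38a2 passed the test as well, at 0.79 (adjusted p = 0.000657) and 0.60 (adjusted p = 0.0105), where over all 10 pairs they stood at 0.33 (adjusted p = 0.148) and 0.05 (adjusted p = 0.875). All 4 B cell markers had a higher mean in Th2 cells, with a summed log2 level of 8.51 to 10.0 on Th1 and 9.66 to 11.3 on Th2 arrays, and 5 myeloid markers, of which Lyz2 was not above background in Cy3, gave 12.2 to 13.9 against 12.9 to 14.2. Both CD8 T cell markers had a higher mean in Th1 cells, with 7.55 to 9.34 on Th1 and 7.21 to 8.22 on Th2 arrays. Their part in the Th1 to Th2 differences was not tested.

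The drug effects themselves were not called as different between Th1 and Th2 cells for any transporter. With flavopiridol 0 of 6 were called by limma and 2 had an unadjusted p below 0.05 (Slc2a3 at -1.30 and Slc2a1 at -0.74), with 0.0161% of all genes called and 1608 of 12432 at an unadjusted p below 0.05. With JQ1 0 of 6 were called and 0 were below 0.05 unadjusted, with 0% of all genes called and 907 of 12910 below 0.05 unadjusted. For Slc2a3 the 4 flavopiridol differences were -1.16 and -0.71 in unstimulated and reactivated Th1 cells and -0.02 and 0.76 in Th2 cells.

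The 2 probes of Slc7a5 parted under flavopiridol. Over the 16 arrays without flavopiridol their ratios moved together, with r of 0.985, but over the 8 flavopiridol arrays r was -0.29. On those 8 arrays the brighter probe read 2.78 to 3.001 in Th1 cells and 1.36 to 1.61 in Th2 cells. The second probe (A_55_P2017972) read -0.12 to 0.17 in Th1 and -0.16 to 0.46 in Th2 cells. The gap between them, which was 1.85 on average without flavopiridol, spanned 0.97 to 2.96 over all arrays. Under 10 µM flavopiridol the second probe changed by -0.18 (adjusted p = 0.577), and its difference between the effects in reactivated and unstimulated cells was -0.91 (adjusted p = 0.112). The probes of Slc1a5 had r of 0.995 and 0.965 over the same sets of arrays, but their gap, brighter minus second, went from -0.19 on average without flavopiridol to -0.68 with it. The change of Slc1a5 with 10 µM flavopiridol was 0.26 by its second probe (adjusted p = 0.661), against -0.33 by the brighter one. These correlations describe arrays that share a reference and, in groups of 8, a slide.

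**Figure D4:**
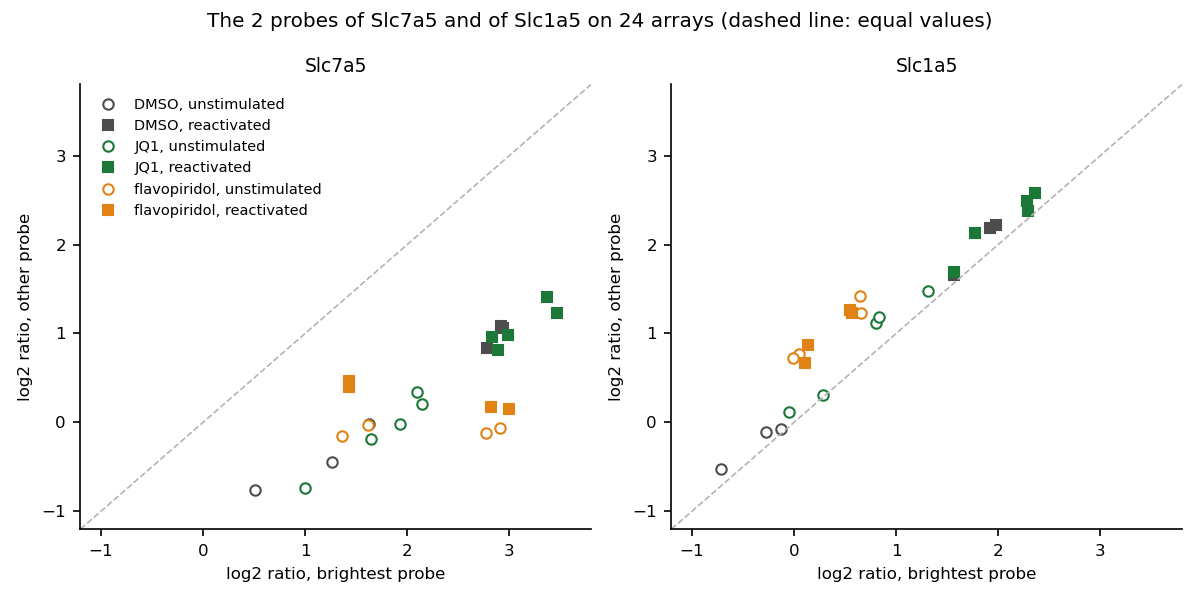
Log2 ratio over naive cells of the brighter probe (horizontal axis) against that of the second probe (vertical axis) of Slc7a5 and Slc1a5, 1 point per array. The 8 flavopiridol arrays of Slc7a5 leave the line of the other 16, with r of -0.29 against 0.985, and those of Slc1a5 keep r of 0.965 but are displaced, with a mean gap of -0.68 against -0.19.

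Slc2a3 differed from the other measured transporters in its reference signal. Its log2 Cy5 signal ranged from 9.74 to 10.7 with an SD of 0.23 over the 24 arrays and followed the Cy3 signal with r of 0.908. The Cy5 SD of the other well measured probes was 0.05 to 0.13. In Cy3 alone the fall of Slc2a3 on reactivation was -1.23 (adjusted p = 0.00190), against -0.80 in the ratio, so the ratio gave the smaller change.

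Over the 16 arrays without flavopiridol the log2 ratios of Slc7a5 and Slc3a2, the chains of system L, had r of 0.959, those of Slc2a1 and Slc2a3 had r of 0.901, and those of Slc7a5 and Slc1a5 had r of 0.847. Slc2a3 and Slc1a5 had r of -0.80. Over the 8 flavopiridol arrays the values for these pairs were 0.809, -0.09, -0.96 and 0.791. Of 8806 genes well above background on all arrays, those with the highest r over the 16 arrays included Sugt1 (0.943) and Zeb1 (0.938) for Slc2a1, Zmat3 (0.957) and Pld2 (0.95) for Slc2a3, and Prrc2c (0.979) and Csnk2a1 (0.969) for Slc7a5. For Slc3a2 they included Pim1 (0.978) and Odc1 (0.974), for Slc1a5 2410002F23Rik (0.984), and for Slc38a2 Il20rb (0.929) and Spast (0.929). Over the 8 flavopiridol arrays r was above 0.75 for Odc1 with Slc3a2 (0.787) and for 2410002F23Rik with Slc1a5 (0.754), and was -0.88 for Zeb1 with Slc2a1.

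Among the other glucose transporters, 10 of 11 were on the array and 2 were well above background on all arrays. The shares of all genes called were 21.9% higher and 29% lower on reactivation, 15.4% and 33.5% with 10 µM flavopiridol and 17.7% and 29.9% with 500 nM JQ1. Values of related genes from here on are given after loess only. With centring on spike-in RNA, higher calls over all genes went from 1910 to 26 with 10 µM flavopiridol and from 2282 to 115 with 500 nM JQ1. On reactivation 0 of 3 tested rose and 2 fell, Slc2a8 by -2.22 (SE 0.15, adjusted p = 0.000260) and Slc2a9, a urate and sugar carrier, by -0.99 (adjusted p = 0.00240), the latter well above background on 2 of 3 reactivated arrays. Slc2a6 was 3.78 above naive cells before and 3.90 above them after reactivation (adjusted p = 3.53e-05 and 3.61e-05). With 10 µM flavopiridol 1 of 3 rose (Slc2a9, 1.15, adjusted p = 0.00305) and none fell. With 500 nM JQ1 1 of 4 rose (Slc2a4, 0.42, adjusted p = 0.00194, well above background on 2 of 4 DMSO and 3 of 4 JQ1 arrays) and 1 fell (Slc2a6, -0.39, adjusted p = 0.00260). The loss of Slc2a8 on reactivation was also smaller with flavopiridol, by 2.09 (adjusted p = 0.00839), and with JQ1, by 0.95 (adjusted p = 0.0182).

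Of 32 other amino acid transporters, 13 were well above background on all arrays and 10 on none. On reactivation 4 of 16 tested rose and 3 fell, with a median of 0.19 against -0.05 over all genes (21.9% called higher, 29% lower). Slc7a1, the arginine and lysine carrier, rose by 2.03 (SE 0.22, adjusted p = 0.000724) and Slc38a1, a glutamine carrier related to Slc38a2, by 1.76 (SE 0.13, adjusted p = 0.000276), whereas Slc43a2, a system L carrier without a heavy chain, fell by 1.82 (adjusted p = 0.00157) and the lysosomal amino acid sensor Slc38a9 by 1.77 (adjusted p = 0.000700). At 10 µM flavopiridol 3 of 18 rose and 3 fell, where 15.4% of all genes were called higher and 33.5% lower. The latter were Slc7a1 (-1.62, adjusted p = 0.0240), Slc38a1 (-1.04, adjusted p = 0.0428) and Slc1a4 (-0.75, adjusted p = 0.0342), and the highest of the former was Slc38a10 (0.92, adjusted p = 0.00428). With 500 nM JQ1 6 of 21 rose and 4 fell, where 17.7% of all genes were called higher and 29.9% lower. Among the former were Slc7a8, another light chain of CD98, at 1.19 (adjusted p = 7.20e-05, well above background on 1 of 4 DMSO arrays) and the aromatic amino acid carrier Slc16a10 at 1.11 (adjusted p = 2.26e-05), and among the latter was Slc36a4 at -0.75 (adjusted p = 0.000156). Slc38a1 differed between states under both drugs, with -1.87 for flavopiridol (adjusted p = 0.00413) and 1.29 for JQ1 (adjusted p = 0.00409), the opposite sign to the -1.19 of Slc1a5 under JQ1.

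All 5 lactate and pyruvate carriers were tested. On reactivation 0 rose and 1 fell (all genes 21.9% and 29%), the lactate exporter Slc16a3 (-0.52, adjusted p = 0.0418), which stood 4.16 above naive cells before and 3.64 above them after reactivation. With 10 µM flavopiridol 1 rose (Slc16a1, 0.55, adjusted p = 0.00791) and 0 fell (all genes 15.4% and 33.5%). With 500 nM JQ1 2 rose and 0 fell (17.7% and 29.9%). The 2 were the chains of the mitochondrial pyruvate carrier, Mpc2 at 0.76 (adjusted p = 4.93e-05) and Mpc1 at 0.36 (adjusted p = 0.00521).

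**Figure D5:**
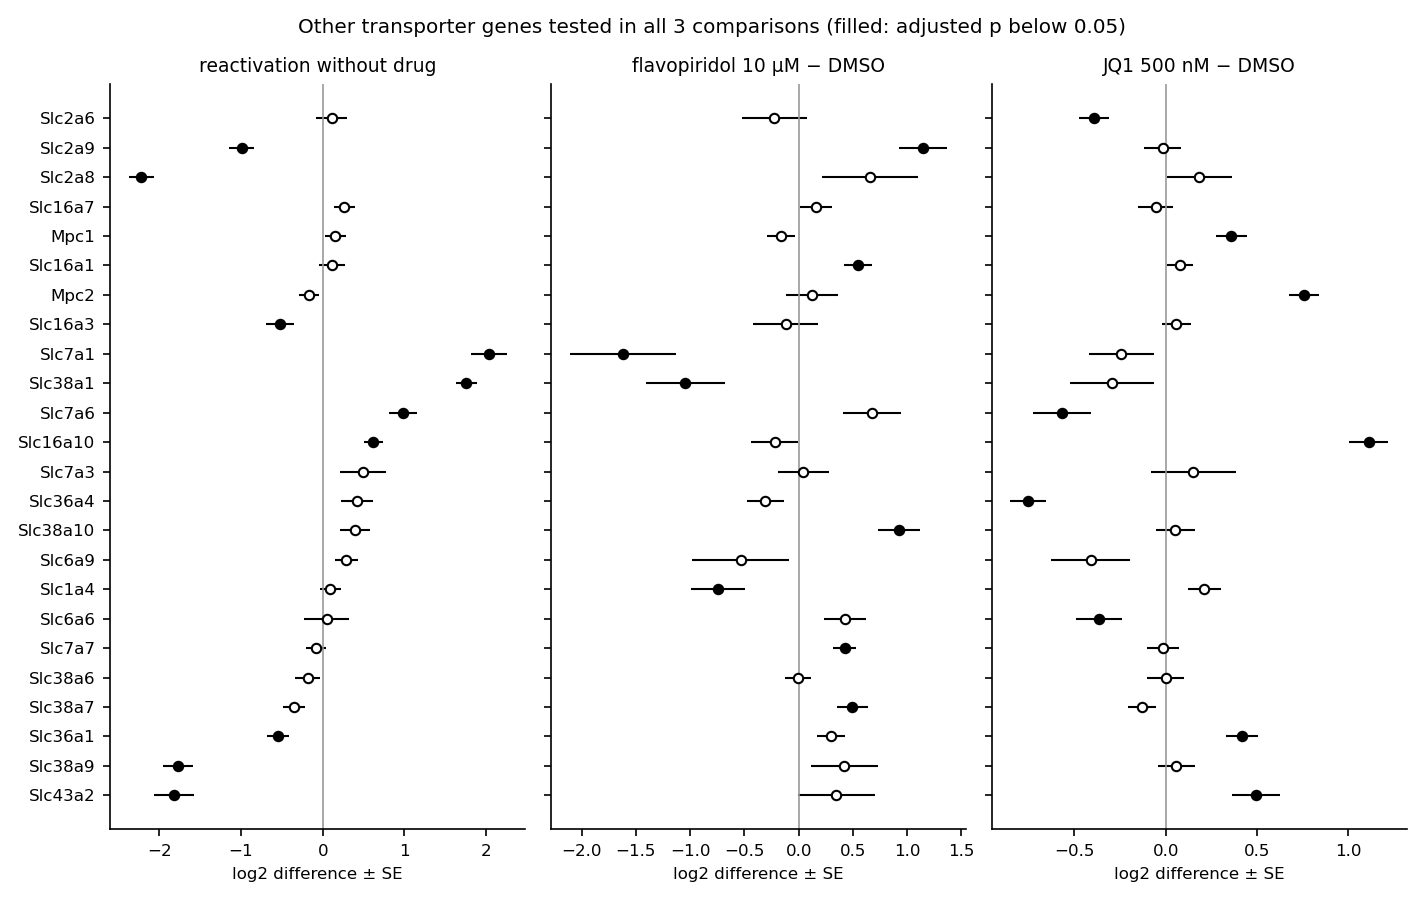
Log2 differences with their SE (horizontal axes) of 24 other transporter genes on reactivation, with 10 µM flavopiridol and with 500 nM JQ1, filled where the adjusted p was below 0.05. Slc7a1 (2.03) and Slc38a1 (1.76) are the highest on reactivation and the lowest with flavopiridol, at -1.62 and -1.04.

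Of 10 enzymes that act on the imported glucose and amino acids, 9 were tested. On reactivation 4 rose and 2 fell (all genes 21.9% and 29%). Bcat1, which transaminates leucine, rose by 3.97 (SE 0.19, adjusted p = 0.000149), whereas Hk1, a hexokinase, fell by 0.96 (adjusted p = 0.00261). At 10 µM flavopiridol 1 rose and 4 fell (all genes 15.4% and 33.5%), among the latter Hk2, the inducible hexokinase, at -1.68 (adjusted p = 9.27e-05), and the riser was the mitochondrial Bcat2 at 1.17 (adjusted p = 0.000551). With 500 nM JQ1 3 rose and 3 fell (17.7% and 29.9%), with Gclc, the rate-limiting enzyme of glutathione synthesis, at 1.00 (adjusted p = 3.15e-05) and Bcat1 at -0.69 (adjusted p = 0.00367).

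The list of 11 regulators of these transporters held factors of glucose and amino acid control. On reactivation 5 rose and 3 fell (all genes 21.9% and 29%), with Myc at 3.31 (SE 0.35, adjusted p = 0.000697), Chac1, an Atf4 target that degrades glutathione, at 1.72 (adjusted p = 0.0113), the amino acid response factor Atf4 at 1.24 (adjusted p = 0.00629) and Txnip, which promotes removal of GLUT1 from the membrane, at -3.47 (SE 0.15, adjusted p = 0.000121). Flavopiridol at 10 µM lowered 9 and raised 0 (all genes 33.5% and 15.4%), with Atf4 at -3.92 (SE 0.34, adjusted p = 5.71e-05) and Myc at -2.73 (adjusted p = 0.00742), against an all-gene median of -0.22. Chac1 was among the 9 (adjusted p = 0.00160) but was not well above background on any of the 4 arrays at 10 µM, so no size is given. With 500 nM JQ1 5 rose and 1 fell (17.7% and 29.9%), with Txnip at 1.14 (adjusted p = 0.00314), Ddit3 at 0.85 (adjusted p = 0.00610), Sesn2 at 0.73 (adjusted p = 0.00170), Atf4 at 0.72 (adjusted p = 0.00841) and Myc at -0.62 (adjusted p = 0.000962). Txnip and Myc also differed between states with flavopiridol, by 3.74 (adjusted p = 0.00555) and -3.32 (adjusted p = 0.00831).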

How the data were processed

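Gene expression was measured on 24 two-colour Agilent arrays, 14 of Th1 and 10 of Th2 cells, 1 per condition. The deposited scanner files held median intensity values per spot and per local background in both channels, which per the file headers came from Agilent Feature Extraction 10.7.1.1 with a grid of build mm9. The deposited files also held that software's log10 ratio of Cy5 over Cy3 after its own background subtraction and dye normalization. A further table by the authors gave log2 ratios of 34710 probes with no statement of their normalization, and it served as an alternative.

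From the intensities, background was removed by normexp (offset 50), dyes were balanced by loess within arrays (limma 3.58.1, R 4.3.3), and ratios were turned to log2 Cy3 over Cy5 with control and outlier spots at weight 0 in loess. Spots of a probe were averaged, a gene was represented by its brightest probe, and names came from RefSeq accessions (GRCm38.p6, names only). Genes well above background in Cy3 (for naive comparisons, in either channel) on at least 3 arrays of a fit were tested by limma's lmFit and eBayes with Benjamini-Hochberg adjustment over all genes tested, and called at an adjusted p below 0.05. Reactivation was fitted on 6 DMSO arrays, blocked by pair, each drug on 12 arrays, blocked by the 4 contexts of cell type and state, and Th1 against Th2 cells on 10 matched pairs. Alternatives changed the centring (median, spike-in RNA), the dye channel, the filter, the probe, the block, the slide term and the arrays included. The steps were tested on simulated data. The number of arrays limits the precision. The SD of the difference between naive signals of 2 arrays was 0.185 (log2, median of 276 pairs). Single arrays of a condition were taken as labelled, and sources used here do not say whether cultures were separate.

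The 7 genes and the lists of related genes were chosen with earlier results of these data known. Named were the 7 genes with all their probes, per list of related genes the called ones with the largest absolute change, and the 2 genes most like each member by r over the 16 arrays without flavopiridol. Some genes that this rule would name are not reported here.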

Additional observations from a re-analysis of the deposited data

Results flagged for a closer look

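For 3 transporters the effect of 10 µM flavopiridol differed between reactivated and unstimulated cells by a limma test of the difference itself. The difference was -1.797 for Slc7a5 (adjusted p = 0.0409), -1.302 for Slc3a2 (adjusted p = 0.0293) and -2.192 for Slc1a5 (adjusted p = 0.00202), all log2. Of 13 alternatives, 9 lost the call of Slc7a5, 7 that of Slc3a2 and 1 that of Slc1a5. For JQ1 at 500 nM the difference was -1.194 for Slc1a5 (adjusted p = 0.00308). The flavopiridol arrays lay on other slides than their DMSO arrays, and both states of a treatment shared a slide. Within Th1 cells the JQ1 and DMSO arrays shared a slide, and the effect on Slc1a5 was 1.55 in unstimulated and 0.21 in reactivated cells.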

How the results depend on the processing

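For 30 called changes of single transporters 508 values were recomputed, of which 503 kept their direction and 5 reversed, and 66 of those in the same direction lost the call. The calls at 1 µM flavopiridol and between the JQ1 doses are not among the 30 and were not recomputed. With no pair block 3 of 6 genes were called on reactivation. With 10 µM flavopiridol 5 were called under median centring and 6 under spike-in centring, where Slc7a5 read -1.565. With 500 nM JQ1 no amino acid transporter was called under spike-in centring or under loess with a spike-in shift, where Slc38a2 read -0.09218 and -0.01535. The 2 genes called under the former were Slc2a1 and Slc2a3, both lower, and the 1 under the latter was Slc2a3, lower. No transporter (0) was called for JQ1 with no context block, in 1 fit of 24 arrays with slide as a term, or at the lower dose, where Slc38a2 read -0.04899, and within the slide of the 24 hr Th1 arrays it read -0.06261. The state-dependent effect of flavopiridol was called for 1 gene under median centring and 0 under the spike-in shift, and that of JQ1 for 2 and 6, with Slc2a3 at -1.152 under the shift. The second probe of Slc7a5 read -0.409 in unstimulated against naive cells, an alternative chosen after seeing the data. Leaving out each array in turn gave 4 to 6 calls on reactivation, 3 to 4 with flavopiridol, 4 to 6 with JQ1, 1 to 3 for either state-dependent effect, 4 for Th1 against Th2 cells, 3 to 6 for unstimulated and 5 to 6 for reactivated against naive cells.

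Over all genes, 6076 calls with 10 µM flavopiridol (1910 higher, 4166 lower) became 11301 (26, 11275) under spike-in centring and 3319 with slide as a term. Those with 500 nM JQ1 went from 6144 (2282, 3862) to 5532 (115, 5417) under spike-in centring, 3209 with slide as a term, 899 with no context block and 44 at the lower dose. On reactivation 6382 calls (2746, 3636) became 6137 (3977, 2160) under the spike-in shift. State-dependent calls went from 1968 to 142 with flavopiridol and from 1307 to 10600 with JQ1 under that shift, and Th1 against Th2 calls from 4663 (2234, 2429) to 1246 (983, 263) and, with slide as a fixed term, to 1548. The cause was not tested. Probes near background, such as that of Slc7a11, allow no statement of level, and with 1 array per condition no single condition has an error of its own.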
